A study of Rattus norvegicus with 10 samples.

Results

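The DNA replication and S phase genes are the 44 genes of a list of replication factors, nucleotide supply enzymes and S phase regulators, and their probes were those whose accession belongs to 1 of these symbols. Of the 44 genes, 38 had at least 1 probe named in this way (56 of the 41012 probes of the array), and 31 genes (41 probes) gave a signal that could be tested. Mcm5, E2f8, Gins1, Chaf1a, Uhrf1 and Rpa1 had no probe named through an accession. Cdc6, Cdt1, Gins2, Orc1, Pola1, Pola2 and Ccne2 had probes, but not one that was above background throughout a group, so no change was tested for them. A filter of this kind keeps a gene that is bright in only 1 group and loses a gene that is dim in all of them.

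Gene expression was measured on 10 one-colour Agilent arrays that cover the rat genome, with liver RNA of male Sprague Dawley rats. The control group (3 arrays) received the solvent alone. The SM group (4 arrays) received a single subcutaneous dose of sulfur mustard, a bifunctional alkylating agent, at 3.5 mg/kg (0.7 of the LD50). The SM + MSTF group (3 arrays) received the same dose of SM and, 1 h later, MSTF by stomach at 120 mg/kg, where MSTF joins total flavonoids of Anemarrhena asphodeloides with the salvianolic acids of another plant, Salvia miltiorrhiza. None of the 10 arrays came from a rat given MSTF without SM. All livers were taken 24 h after SM, and the age of the rats is not given in the sources used here. The 3 control arrays and the third SM + MSTF array shared slide 1, the 4 SM arrays filled slide 2 and the other two SM + MSTF arrays lay on slide 3, so SM and its slide cannot be told apart. Between 51.9% and 61.4% of probes were well above background on an array, and no spot was saturated. Liver identity was clear on all arrays, since the mean log2 signal of 8 hepatocyte markers such as Alb was between 15.7 and 15.9 on every array.

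DNA replication starts when the origin recognition complex, Cdc6 and Cdt1 load the Mcm2 to Mcm7 ring onto DNA, and Cdc45 and the GINS complex then turn that ring into the active helicase. Primase and DNA polymerase alpha begin each strand, polymerases delta and epsilon extend it on the sliding clamp Pcna, and Fen1 and Lig1 join the fragments of the lagging strand. Ribonucleotide reductase, Tyms, Tk1 and Dut provide the nucleotides, and E2F factors together with cyclin E switch on most of these genes at the start of S phase. Hepatocytes of the adult liver are almost all out of the cell cycle, but they can enter S phase again after tissue loss. Alkylated and crosslinked DNA blocks replication forks and activates the S phase checkpoint. In bulk liver RNA, fewer cells in S phase and less RNA per cell cannot be told apart.

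No member gene passed the test in any comparison. A gene was read from its brightest tested probe, and it was called at a Benjamini-Hochberg adjusted p under 0.05 in a limma fit over all 22991 probes tested together with a change of at least 1.5-fold. For SM against control, 0 of 31 members were called, against 1.44% of the 9190 named genes tested (132 genes), and the smallest adjusted p of a member was 0.146 (Tyms). For SM + MSTF against control, 0 of 31 were called against 0% of all named genes, with a smallest adjusted p of 0.406 (Rrm2 and Dut). For SM + MSTF against SM, 0 of 31 were called against 1.06% (97 genes), with a smallest adjusted p of 0.222 (Prim1). At an unadjusted limma p under 0.05, 2 members (Rrm2 and Tyms), 6 members (Rrm2, Tyms, Dut, Prim1, Rpa3 and Chaf1b) and 2 members (Prim1 and Dut) were lower in these comparisons, and 0 were higher. The matching shares of lower genes among all named genes were 4.98%, 4.16% and 9.01%. At an unadjusted p under 0.05 with at least 1.5-fold, 0, 3 (Rrm2, Tyms and Chaf1b) and 0 members were lower, against 1.75%, 1.29% and 2.76% of all named genes.

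The members as a whole lay close to their control level. The median log2 fold change over the 31 genes was -0.05 for SM against control, where it was 0.04 over all named genes. For SM + MSTF against control it was -0.06, where all named genes had 0.02, and for SM + MSTF against SM it was -0.01, where they had -0.02. Without the first control array the median for SM against control was -0.17 and that for SM + MSTF against control -0.23, and without the second control array they were 0.04 and 0.0034, so neither has a settled sign. Without the fourth SM array the median for SM + MSTF against SM was 0.07. All 3 medians over the full set of arrays were smaller than the spread of the members' median between replicates, whose SD was 0.20 on the log2 scale. Fold changes below 0 were found for 20, 22 and 17 of the 31 members, against 42.3%, 45.2% and 53.2% of all named genes. The precision differed by gene. The half-width of the 95% interval of a member's log2 fold change had a median of 0.41 for SM against control and ran from 0.24 to 0.81. The whole interval lay within 1.5-fold in either direction for 16 of the 31 genes in that comparison, for 11 for SM + MSTF against control and for 17 for SM + MSTF against SM. For the remaining genes the interval reached past 1.5-fold on at least 1 side. The plot of log2 fold changes by role shows the interval of each gene.

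**Figure D1:**
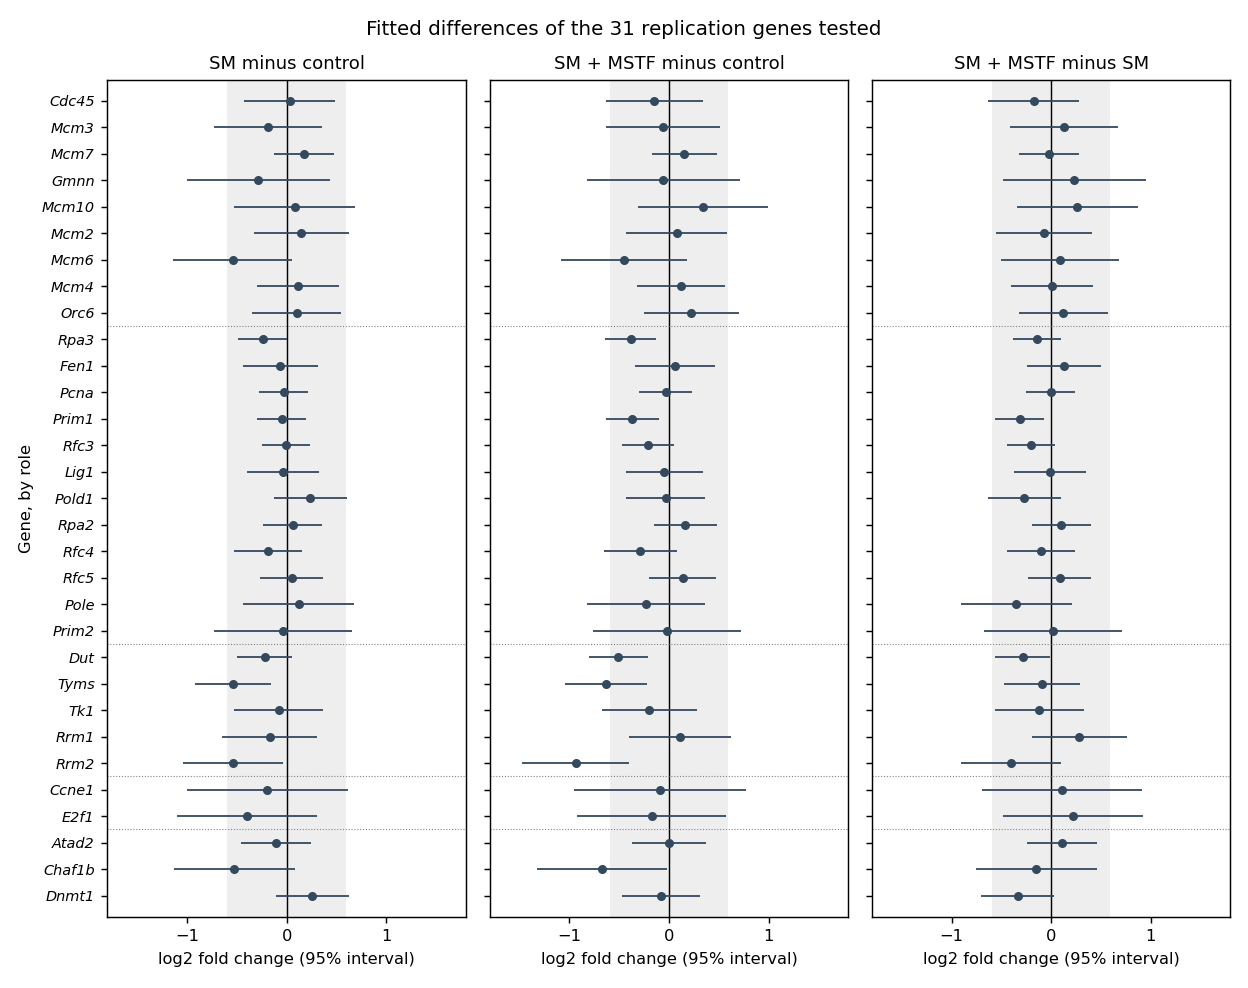
Log2 fold change of the 31 replication genes tested (points) with 95% intervals from the limma fit (bars), in 3 comparisons, grouped by role with dotted lines. The grey band marks less than 1.5-fold in either direction. Most points lie near 0, and the lowest is Rrm2 in SM + MSTF minus control at -0.94.

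Within a group, most replication genes were low together on some rats' arrays and high together on others. On the first control array 29 of the 31 members lay below their own group's mean, and on the second control array 1 did. On the first SM array all 31 members lay below the SM mean (median deviation -0.22 on the log2 scale), whereas on the fourth SM array 4 did (median deviation 0.18). On the third SM + MSTF array 26 of 31 lay below the mean of their group (median deviation -0.21), and on the second 7 did. The first and second control arrays, with median deviations of -0.25 and 0.22, thus lay farther apart than any of the 3 median differences between groups. The median deviation of all named genes from their control mean ran from -0.02 to 0.06 over the 10 arrays. The swing was not particular to the members. On the first and second control arrays the median deviation was -0.38 and 0.26 for 11 G2 and mitosis genes described below. It was -0.70 and 0.68 for 6 erythroid markers, but -0.15 and 0.03 for 23 other replication genes. Detected probes made up 57.1% of all probes on the first and 51.9% on the second control array, and the part of detection in this pattern was not tested. Each array held the liver RNA of 1 rat.

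**Figure D2:**
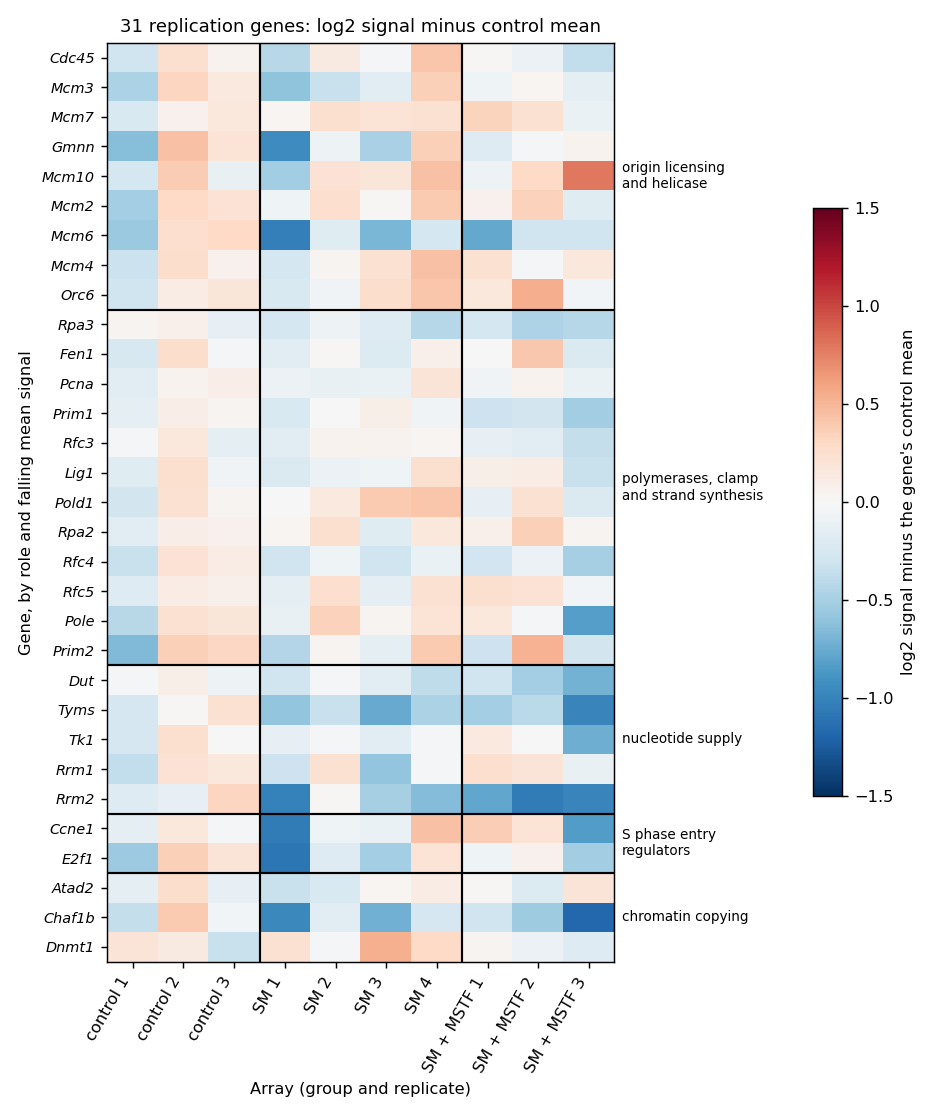
Log2 signal of each of the 31 genes (rows, by role) minus that gene's control mean on each of the 10 arrays (columns), with blue for lower and red for higher. Most genes are blue on the first control array and on the first SM array, with exceptions such as Dnmt1. Tyms and Rrm2 are blue on most SM and all SM + MSTF arrays.

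Many members share a promoter feature. Because E2F factors switch on most of these genes, the choice of genes makes a raised share of E2F sites likely. Promoter windows of 300 bases (250 before the start and 50 after it) from RefSeq on the assembly GRCr8 were found for 35 of the 44 members, which have 38 windows. An E2F site, taken as an exact match on either strand to TTTCGCGC, TTTGGCGC, TTCCCGCC, TTCGCGCC or TTTCCCGC (words that can overlap), was present in 21 of these windows (55.3%), belonging to 20 genes, against 3.5% of all 33469 windows. A CCAAT box, the binding sequence of NF-Y, was present in 24 of 38 windows (63.2%) against 37.5% of all windows. The sequence TTTGAA, the cell cycle homology region of mitotic genes, was present in 2 of 38 (5.26%) against 18.3%. By role, 8 of 12 licensing and helicase genes, 7 of 14 polymerase and clamp genes, 2 of 4 nucleotide supply genes, 3 of 4 chromatin genes and 0 of 1 S phase entry regulators had an E2F site. A match describes the letters and is not a bound site, and the windows compared were not matched for base composition. Atad2, Ccne2, Cdc6, E2f1, E2f8, Mcm4, Orc1, Rpa3 and Rrm2 had no window in the table.

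The windows before the start are shown for 4 genes described below, 5′ to 3′ on the strand of the gene, with E2F site matches in capitals. Tyms (chr9:120776084-120776333, minus strand) had SM arrays that all lay below the control arrays. Rrm1 (chr1:166235654-166235903, plus strand) is a subunit of the enzyme that also holds Rrm2. Mcm6 (chr13:42404353-42404602, minus strand) had, of the tested licensing genes, the lowest log2 fold changes against control. Dut (chr3:132952180-132952429, plus strand, the first of its 2 windows) had no match in either window.
Tyms: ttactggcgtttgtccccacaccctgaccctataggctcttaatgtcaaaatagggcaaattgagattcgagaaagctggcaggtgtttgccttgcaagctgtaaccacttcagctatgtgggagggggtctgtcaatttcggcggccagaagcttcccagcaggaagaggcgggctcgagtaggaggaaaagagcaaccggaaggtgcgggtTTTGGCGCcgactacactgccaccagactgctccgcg
Rrm1: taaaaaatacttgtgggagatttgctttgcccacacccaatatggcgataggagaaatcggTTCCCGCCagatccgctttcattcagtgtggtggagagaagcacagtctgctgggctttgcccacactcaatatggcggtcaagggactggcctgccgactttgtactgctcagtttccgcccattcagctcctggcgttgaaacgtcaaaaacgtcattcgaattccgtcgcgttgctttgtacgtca
Mcm6: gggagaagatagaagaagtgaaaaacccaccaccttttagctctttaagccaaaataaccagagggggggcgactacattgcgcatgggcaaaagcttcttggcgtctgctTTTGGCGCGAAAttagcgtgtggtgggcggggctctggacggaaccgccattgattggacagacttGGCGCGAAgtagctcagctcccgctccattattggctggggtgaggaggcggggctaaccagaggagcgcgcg
Dut: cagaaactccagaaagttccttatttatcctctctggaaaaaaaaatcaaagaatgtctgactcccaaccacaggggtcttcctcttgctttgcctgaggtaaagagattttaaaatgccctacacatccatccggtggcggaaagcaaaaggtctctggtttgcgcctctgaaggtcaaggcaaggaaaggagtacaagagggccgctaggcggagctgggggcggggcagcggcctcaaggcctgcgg
The Mcm6 window holds 4 matches, of which 3 overlap in the first stretch of capitals and 1 forms the other, and the Tyms and Rrm1 windows hold 1 each. On the probe used for each gene, the log2 fold change for SM + MSTF against control was -0.51 for Dut and -0.63 for Tyms. It was 0.11 for Rrm1 and -0.45 for Mcm6. A link between matches and these values was not tested.

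Among the licensing and helicase genes, 9 of 15 could be tested and on the probe used for the gene none reached an unadjusted p under 0.05 in any comparison. Their median log2 fold change was 0.08 for SM against control, 0.08 for SM + MSTF against control and 0.09 for SM + MSTF against SM. Cdc45, the factor that completes the helicase and the brightest gene of the group, had log2 signals of 8.08, 8.62 and 8.44 on the control arrays, 7.97, 8.52, 8.36 and 8.80 on the SM arrays and 8.40, 8.30 and 8.01 on the SM + MSTF arrays. These values overlapped fully, and the log2 fold change was 0.03 ± 0.20 (SE) for SM against control and -0.15 ± 0.22 for SM + MSTF against control. Of the subunits of the Mcm ring, 5 were tested. Mcm7 had mean log2 signals of 6.98 ± 0.21 (SD, n = 3) in control, 7.15 ± 0.10 (n = 4) in SM and 7.13 ± 0.23 (n = 3) in SM + MSTF. Mcm2, Mcm3 and Mcm4 differed from control by -0.19 to 0.15 on the log2 scale in both treated groups. A dimmer second probe of Mcm2 gave -0.37 in SM (unadjusted p = 0.026, adjusted p = 0.225) and -0.06 in SM + MSTF. Mcm6 had the lowest log2 fold changes of the group against control. Its log2 signals were 5.25, 6.06 and 6.11 in control, 4.78, 5.62, 5.12 and 5.54 in SM and 5.04, 5.51 and 5.51 in SM + MSTF. The Mcm6 groups overlapped through the low first control array, and the log2 fold change of -0.54 for SM against control (SE 0.27) had an unadjusted p of 0.070 and an adjusted p of 0.356. Gmnn, the inhibitor of Cdt1, differed by -0.29 for SM against control with a 95% interval from -1.01 to 0.43. Mcm10, which binds the helicase, had its highest value for SM + MSTF against control (log2 fold change 0.34, 95% interval -0.31 to 0.99).

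Among the polymerases, clamp and strand synthesis genes, 12 of 15 could be tested, and their median log2 fold changes were -0.03, -0.04 and -0.06 in the 3 comparisons. Pcna, the sliding clamp and a common marker of proliferating cells, had log2 signals of 9.90, 10.12 and 10.16 in control, 9.97, 9.94, 9.96 and 10.25 in SM and 10.01, 10.12 and 9.96 in SM + MSTF. All of these arrays lay in the same range. Its log2 fold change was -0.03 for SM against control (95% interval -0.28 to 0.22) and -0.03 for SM + MSTF against control (95% interval -0.30 to 0.23). The flap endonuclease Fen1, the ligase Lig1, the catalytic subunit Pold1 of polymerase delta and the clamp loader subunits Rfc3, Rfc4 and Rfc5 differed from control by -0.19 to 0.24 in SM. Pole and Prim2 had wider intervals, which reached 0.68 and -0.73 for SM against control.

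A log2 fold change below 0 was found for 9 of these 12 genes for SM + MSTF against control, and Prim1 and Rpa3 were the ones at an unadjusted p under 0.05. Prim1, the catalytic subunit of primase, had log2 signals of 9.93, 10.17 and 10.12 in control, 9.84, 10.07, 10.15 and 10.02 in SM and 9.76, 9.79 and 9.55 in SM + MSTF. All SM + MSTF arrays lay below all control and all SM arrays. The log2 fold change was -0.37 ± 0.12 (SE) against control (unadjusted p = 0.012, adjusted p = 0.424 in limma) and -0.32 ± 0.11 against SM (unadjusted p = 0.018, adjusted p = 0.222). A second Prim1 probe gave -0.33 and -0.36, with SM + MSTF again below both other groups. Neither probe reached 1.5-fold. Rpa3, a subunit of the complex that coats single-stranded DNA and the brightest gene of this group, had log2 signals of 11.25, 11.28 and 11.09 in control, 10.94, 11.12, 11.02 and 10.77 in SM and 10.94, 10.75 and 10.77 in SM + MSTF. Its SM + MSTF arrays lay below the control arrays, by -0.39 on the log2 scale (SE 0.12, unadjusted p = 0.0081, adjusted p = 0.423). The difference for SM against control was -0.24 (unadjusted p = 0.051). Rpa2, another subunit of that complex, differed by 0.06 and 0.16.

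The nucleotide supply genes had the lowest median of the role groups for SM + MSTF against control. All 5 genes were tested. On the probe used for each gene, their median log2 fold change was -0.22 for SM against control and -0.51 for SM + MSTF against control. Below 0 were 5 of 5 and 4 of 5 genes. Both medians are the values of Dut on its brighter probe. Other probes of Dut and Rrm1 were above 0 for SM against control, as given below. On single arrays the median deviation of the 5 genes from their control mean was -0.25, 0.09 and 0.15 in control, -0.31, -0.03, -0.50 and -0.38 in SM and -0.30, -0.40 and -0.73 in SM + MSTF. All SM + MSTF arrays thus lay below all control arrays, and the SM arrays overlapped with control through the second SM array. No gene of the group passed the test.

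Rrm2 is the regulatory subunit of ribonucleotide reductase, the enzyme that makes deoxynucleotides, and its amount rises in S phase. Its brighter probe, which represents the gene here, had log2 signals of 6.07, 6.14 and 6.59 in control, 5.25, 6.28, 5.77 and 5.61 in SM and 5.49, 5.22 and 5.27 in SM + MSTF. The SM + MSTF arrays were all below the control arrays, and the SM arrays overlapped with control through the second SM array. The log2 fold change was -0.54 ± 0.22 (SE) for SM against control (unadjusted p = 0.039, adjusted p = 0.272) and -0.94 ± 0.24 for SM + MSTF against control (unadjusted p = 0.0032, adjusted p = 0.406). A second Rrm2 probe had log2 signals of 6.19, 6.74 and 6.66 in control, 4.37, 5.94, 4.24 and 5.07 in SM and 5.24, 4.71 and 4.62 in SM + MSTF. On this probe all treated arrays lay below all control arrays, and 3 of 4 SM arrays were well above background. Its log2 fold change was -1.62 ± 0.38 for SM against control (adjusted p = 0.054), just outside the threshold, and -1.68 ± 0.40 for SM + MSTF against control (adjusted p = 0.384). It passed the test for SM against control without the second SM array (log2 fold change -1.97, adjusted p = 0.015), and with arrays scaled to their 75th percentile (-1.57, adjusted p = 0.049). With normexp background correction it did not pass and its difference was smaller, at -0.64 for SM (adjusted p = 0.050) and -0.66 for SM + MSTF against control (adjusted p = 0.308). The brighter probe then gave -0.19 and -0.35. Both probes of Rrm2 thus gave lower values in both treated groups, but their size differed, at 1.45-fold lower in SM than in control for the brighter and 3.08-fold lower for the dimmer probe.

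Tyms, which makes thymidylate from deoxyuridylate, had log2 signals of 7.92, 8.19 and 8.39 in control, 7.58, 7.83, 7.41 and 7.69 in SM and 7.65, 7.76 and 7.18 in SM + MSTF. Read from the probe used for each gene, it was the only member of the 31 whose SM arrays all lay below the control arrays, a pattern shown by 6.34% of all named genes. The log2 fold change was -0.54 ± 0.17 (SE) for SM against control (1.45-fold lower, unadjusted p = 0.011, adjusted p = 0.146) and -0.63 ± 0.18 for SM + MSTF against control (1.55-fold lower, unadjusted p = 0.0066, adjusted p = 0.423). SM + MSTF and SM differed by -0.09 (95% interval -0.48 to 0.29). With normexp background correction the differences of Tyms from control were -0.35 in SM and -0.39 in SM + MSTF.

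Dut, the enzyme that removes dUTP, was the brightest gene of this group, with log2 signals of 11.02, 11.13 and 10.97 in control, 10.74, 11.01, 10.87 and 10.66 in SM and 10.74, 10.53 and 10.33 in SM + MSTF. All SM + MSTF arrays lay below the control arrays (log2 fold change -0.51 ± 0.13, unadjusted p = 0.0036, adjusted p = 0.406), while SM overlapped with control (-0.22 ± 0.12). SM + MSTF differed from SM by -0.29 (unadjusted p = 0.044, adjusted p = 0.301). A second Dut probe gave 0.03 in SM and -0.15 for SM + MSTF against control, with overlap in both. Rrm1, the catalytic subunit of ribonucleotide reductase, had 3 probes that disagreed in sign for SM against control, at -0.17 (the brightest), 0.43 and 0.03. On the second of these the SM arrays all lay above both other groups, with an unadjusted limma p of 0.039 against control. On that probe SM + MSTF differed from SM by -0.49 (adjusted p = 0.238). Tk1, the salvage enzyme thymidine kinase, differed by -0.08 in SM and -0.20 in SM + MSTF.

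The 5 members whose arrays all lay below control for SM + MSTF were Rrm2, Tyms, Dut, Prim1 and Rpa3, and the pattern was found for 7.07% of all named genes. Below all SM arrays it was found for Prim1 alone, against 8.2% of all named genes. These comparisons share arrays, so their values are given side by side and not as separate support. Only the third SM + MSTF array shared a slide with the controls. With the slide as a block in the fit, the SM + MSTF difference from control rests on that array. On it 26 of 31 members lay below the mean of their group. The log2 fold change in this fit was -0.995 for Rrm2, -0.99 for Tyms, -0.71 for Dut and -0.43 for Rpa3. No value of Prim1 is given for this fit. The median over the 31 members was then -0.28 in place of -0.06.

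**Figure D3:**
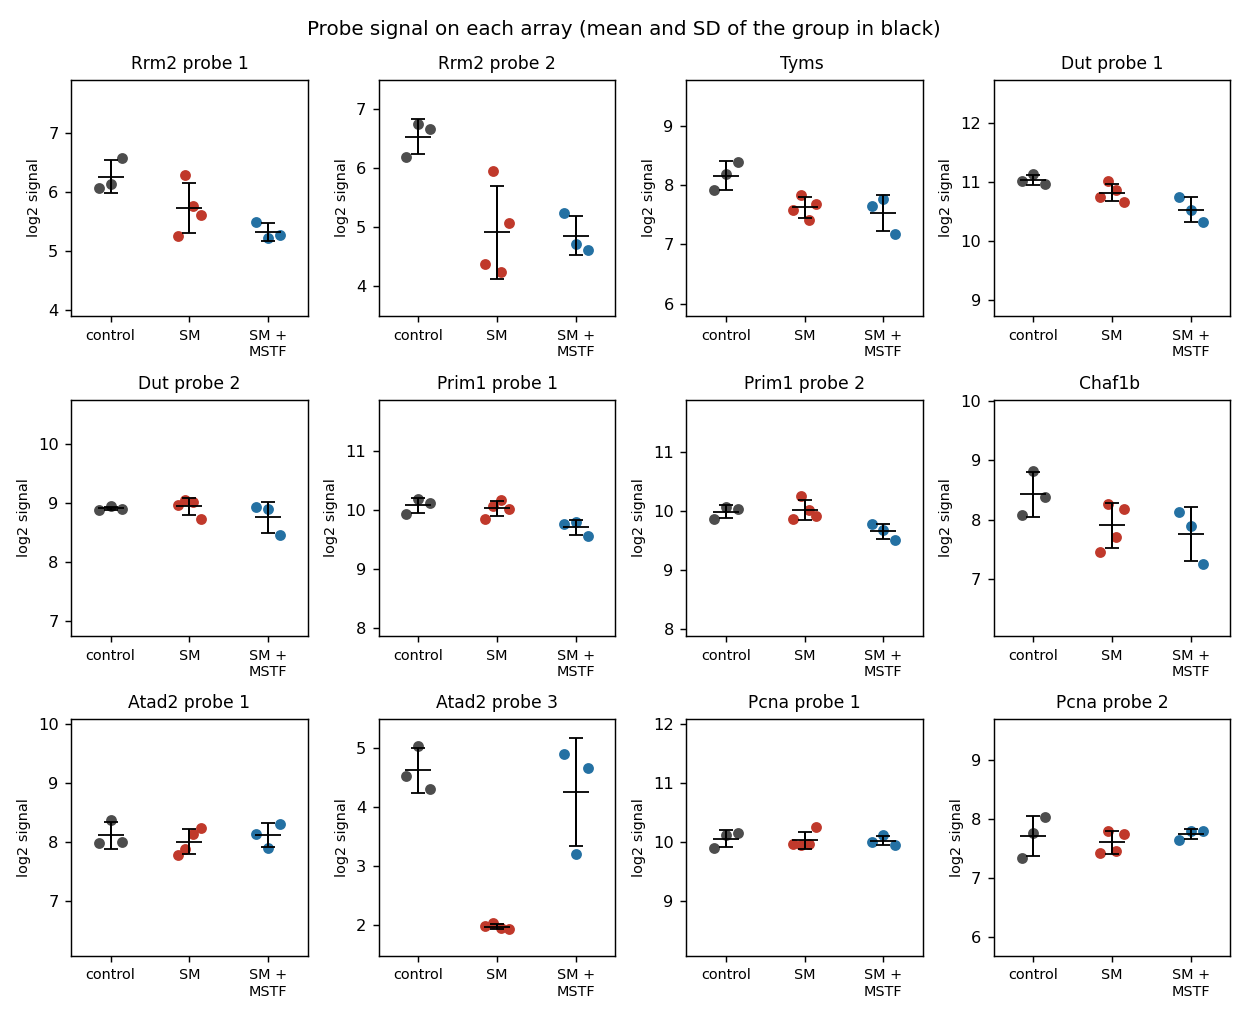
Log2 signal of probes of Rrm2, Tyms, Dut, Prim1, Chaf1b, Atad2 and Pcna on each array (points: 3 control, 4 SM, 3 SM + MSTF) with the group mean and SD in black. Probes of a gene are numbered by falling mean signal, and every panel spans 4 log2 units. The third Atad2 probe is near 2 on all SM arrays, while its first probe stays near 8 in every group.

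The S phase entry regulators E2f1 and Ccne1 overlapped between all groups. Ccne1, the cyclin that drives entry into S phase, had log2 signals of 6.95, 7.23 and 7.06 in control, 6.03, 7.02, 6.98 and 7.52 in SM and 7.44, 7.29 and 6.25 in SM + MSTF. The treated arrays spread far more than the controls, with SDs of 0.62 and 0.65 on the log2 scale against 0.14, and the log2 fold changes were -0.19 ± 0.36 and -0.09 ± 0.38 against control. E2f1, a transcription factor that activates replication genes, differed by -0.39 ± 0.31 in SM and -0.17 ± 0.34 for SM + MSTF against control. The lowest E2f1 and Ccne1 signals of the SM group were both on its first array, where all 31 members were below the SM mean.

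Among the genes of chromatin copying, all 3 genes tested had values within 1.5-fold of control in SM on the probe used for the gene. Chaf1b, a subunit of the complex that places histones on new DNA, had log2 signals of 8.07, 8.82 and 8.38 in control, 7.46, 8.26, 7.71 and 8.17 in SM and 8.12, 7.89 and 7.24 in SM + MSTF. The groups overlapped, and the log2 fold change was -0.53 ± 0.27 (SE) for SM against control (adjusted p = 0.383) and -0.67 ± 0.29 for SM + MSTF against control (unadjusted p = 0.044, adjusted p = 0.510). Without the second control array the first was -0.33, and without the third SM + MSTF array the second was -0.42. Dnmt1, the maintenance DNA methyltransferase, had probes that differed in sign for SM against control (0.26 and -0.09).

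One member probe did pass the test, and it belongs to Atad2, a bromodomain ATPase of chromatin. It is described because of that call. Of the 41 member probes tested, 1 was called for SM against control, 0 for SM + MSTF against control and 1 for SM + MSTF against SM, against 2.41%, 0% and 1.26% of all probes tested. This dimmest of the 3 Atad2 probes had log2 signals of 4.53, 5.03 and 4.30 in control, 1.99, 2.03, 1.95 and 1.94 in SM and 4.90, 3.21 and 4.66 in SM + MSTF. It stood well above background on 0 of 4 SM, 3 of 3 control and 2 of 3 SM + MSTF arrays, so the SM value is only a bound. The probe was tested because all control arrays were above background, a filter that favours a difference from control, and the call is given as a description of this probe. The fit gave a log2 fold change of -2.64 for SM against control (adjusted p = 0.0098) and 2.28 for SM + MSTF against SM (adjusted p = 0.019). Both rest on SM values that were not well above background. With those values raised to the lowest detected signal of each array, SM was at least 1.57-fold lower than control. SM + MSTF was then at least 1.23-fold higher than SM. These bounds were not tested. The brightest Atad2 probe had log2 signals of 7.98, 8.37 and 7.99 in control, 7.77, 7.88, 8.14 and 8.23 in SM and 8.13, 7.90 and 8.30 in SM + MSTF, and the middle one differed by -0.19 for SM against control. Neither of these was called, so the 3 probes of Atad2 disagreed in size and the dim one alone carried the difference. The dim probe is left out where probes must be well above background on all 10 arrays, and no member probe was then called. With normexp background correction the dim probe was not called for SM against control (log2 fold change -0.55, adjusted p = 0.069). Without the second control array its adjusted p against control was 0.058 (log2 fold change -2.44), and without the first SM, the third SM or the first SM + MSTF array the adjusted p of SM + MSTF against SM was 0.061, 0.059 or 0.064.

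Genes of the same processes outside the 44 were followed in further lists. Of 32 other replication genes, such as further subunits of the origin recognition complex and of the polymerases, 23 were tested and none was called in any comparison. Of 23 other E2F and S phase control genes 15 were tested, and of 19 other nucleotide and histone supply genes 14 were tested, and none of these was called. At an unadjusted p under 0.05 there were 3, 2 and 4 other replication genes in the 3 comparisons, 2, 2 and 1 of the other E2F and S phase control genes and 2, 1 and 1 of the other nucleotide and histone supply genes. The share of all named genes at that p, in either direction, was 14.5%, 9.1% and 14.7%, and these counts lie near or below it. With at least 1.5-fold as well, 2 of the 15 other E2F and S phase control genes were lower in SM than in control. For SM + MSTF against control 1 of the 15 was lower. The matching shares of all named genes were 1.75% and 1.29%. No other replication gene and no other nucleotide or histone supply gene was lower by that rule in either comparison. The 3 lists had median log2 fold changes of -0.03, 0.04 and -0.07 for SM against control and 0.01, 0.10 and -0.01 for SM + MSTF against control. Single genes lay far from these medians. Among the other E2F and S phase control genes the log2 fold changes ran from -1.99 to 0.53 for SM against control. They ran from -1.17 to 1.27 for SM + MSTF against control and from -0.57 to 3.26 for SM + MSTF against SM. Ccnd1, a cyclin of the G1 phase, had log2 signals of 10.704, 11.27 and 11.33 in control, 9.97, 10.23, 10.41 and 10.53 in SM and 10.14, 11.35 and 10.45 in SM + MSTF. All SM arrays of Ccnd1 lay below control, with a log2 fold change of -0.82 and an adjusted p of 0.179. Cdkn1a, the p53 target that inhibits cyclin kinases, overlapped between all groups, at -0.15 in SM and -0.33 for SM + MSTF against control. Of 13 p53 targets tested none was called, and 1 reached an unadjusted p under 0.05 in each comparison. The gene for SM against control was lower. For SM + MSTF against control and against SM the gene was higher by at least 1.5-fold. The list median was -0.12 in SM and 0.0016 for SM + MSTF against control. Mki67 had no probe named here.

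Genes of the later stages of the cell cycle, which follow S phase, had lower group means in both treated groups, and none of them passed the test. Of 20 G2 and mitosis genes 11 were tested and 0 were called in any comparison. The median log2 fold change of these 11 was -0.81 for SM against control and -1.07 for SM + MSTF against control. All 11 were below 0 in both, against 42.3% and 45.2% of all named genes. At an unadjusted p under 0.05 with at least 1.5-fold, 9 of 11 were lower in SM and 8 of 11 in SM + MSTF. The same rule gave 0 and 3 of the 31 replication genes and 1.75% and 1.29% of all named genes. All treated arrays lay below all control arrays for 5 of the 11 in each comparison, against 6.34% and 7.07% of all named genes. The median deviation of the 11 from control ran from -1.28 to -0.36 on the SM arrays and from -1.59 to -0.55 on the SM + MSTF arrays, against -0.38 to 0.26 on the control arrays. The licensing and helicase genes on the same arrays ran from -0.42 to 0.39 in SM and from -0.10 to 0.03 in SM + MSTF. Whether the lists differ was not tested.

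**Figure D4:**
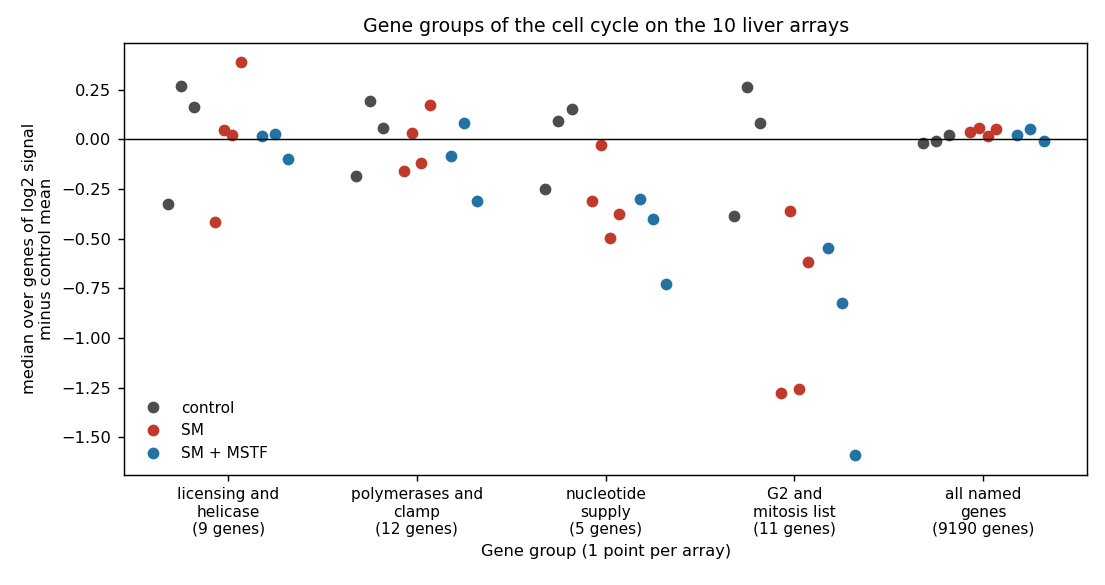
Median over the genes of a group of log2 signal minus the control mean, 1 point per array, for 3 role groups of replication genes, for 11 G2 and mitosis genes and for all 9190 named genes. The nucleotide supply and the G2 and mitosis points of SM + MSTF lie below the control points, whereas the licensing and the polymerase points of all groups overlap.

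Markers of other cells that can divide or leave the liver were followed on the same arrays. The 6 tested erythroid markers of 8 had a summed signal, on the log2 scale, of 12.2 to 13.7 in control, 12.4 to 14.2 in SM and 12.5 to 13.8 in SM + MSTF, and none was called. All 6 had log2 fold changes above 0 in both treated groups, with medians of 0.84 in SM and 0.62 in SM + MSTF. The 4 tested natural killer cell markers of 6 had a summed signal, on the log2 scale, of 9.95 to 10.2 in control, 9.13 to 10.51 in SM and 9.54 to 10.74 in SM + MSTF, and Klrd1 was called lower in SM than in control (log2 fold change -1.22, adjusted p = 0.028) and higher in SM + MSTF than in SM (1.15, adjusted p = 0.045). Of the B cell markers only Cd79b could be tested, with mean log2 signals of 6.36 in control, 4.18 in SM and 4.98 in SM + MSTF, and it was well above background on 2 of 4 SM arrays. The 8 Kupffer cell and macrophage markers all had log2 fold changes below 0 for SM (median -0.16) and above 0 for SM + MSTF (median 0.27) against control, with a summed signal, on the log2 scale, of 16.7 to 17.1 in control, 16.1 to 17.0 in SM and 16.8 to 17.1 in SM + MSTF. Of 6 stellate cell and fibroblast markers, 4 were below 0 in SM (median -0.21) and 6 in SM + MSTF (median -0.34). At an unadjusted p under 0.05 with at least 1.5-fold, 2 were lower in SM and 1 in SM + MSTF. The matching shares of all named genes were 1.75% and 1.29%. Log2 fold changes against control were below 0 for 42.3% of all named genes in SM and 45.2% in SM + MSTF. Over 10 marker lists, Klrd1 was the only gene called. The part of these cells in the values of the replication genes was not tested.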

How the data were processed

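Liver RNA was hybridised to one-colour Agilent arrays, 1 per rat, and the authors deposited scanner output with background-corrected spot intensity (Agilent Feature Extraction 10.7, per the labels) and a table of normalized log2 values, used here as an alternative. Processed signals were averaged per probe, quantile normalized and set on the log2 scale. Names came from matching each probe's accession to RefSeq genes (17512 of 41012 probes matched, 23500 stayed unnamed). The test took probes that stood well above background throughout at least 1 group (22991, of which 5 lack a value on an array) in 1 limma 3.58.1 fit (R 4.3.3) over 10 arrays, with Benjamini-Hochberg adjustment over all of them. A difference was called at an adjusted p under 0.05 and at least 1.5-fold. The study's methods used a t-test, which was kept as an alternative. A gene was read from its tested probe of highest mean signal. Values on every array were to be given for members called, or at an unadjusted p under 0.05 with at least 1.5-fold, in any comparison and for the brightest member of each role. Prim1, Pcna, Mcm6 and the second Rrm2 probe were added after their values were seen. The members and lists were chosen with earlier results of these data known. The script was tested on simulated data. No array signal is a count, so the number of arrays limits the precision. Promoter windows were scanned for exact matches with Python 3.11.15.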

Additional observations from a re-analysis of the deposited data

How the results depend on the processing

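Of 856 values under alternative settings, 791 stayed on their side of the threshold or, for counts and medians, close to the reported value, and 7 of these, all medians of the members, changed sign. No member gene was called under any setting except 2. With all probes of a gene averaged, 1 member gene (Atad2, through its dim probe) was called for SM against control and 1 for SM + MSTF against SM. With the methods' t-test at an unadjusted p, 2 member genes (Rrm2 and Tyms) and 3 member probes were called for SM + MSTF against control. Under 4 scalings 20 members lay below 0 for SM against control, 21 to 22 for SM + MSTF against control and 16 to 20 for SM + MSTF against SM.

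The number of member probes called for SM against control was 2 with 75th percentile scaling and with the methods' t-test at an unadjusted p, and 0 with normexp correction or with only probes well above background on all 10 arrays. For SM + MSTF against SM it was 0 with normexp (0.52 for the dim Atad2 probe, adjusted p = 0.128), with that filter, with only the compared groups in the fit, with the methods' t-test after Benjamini-Hochberg and where slide was the random block. Leaving out 1 array gave 0 to 2 member probes for SM against control and 0 to 1 for SM + MSTF against SM. The Atad2 call was lost without control 2 for SM against control (-2.44), and without SM 1, SM 3 or SM + MSTF 1 for SM + MSTF against SM (2.28, 2.27 and 1.96). The causes were not tested.

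With the slide as a fixed block, the median of the members for SM + MSTF against control moved to -0.28. The brightest Atad2 probe, at -0.00 in that comparison, became 0.19 and the dim one 0.043. The brightest probe was 0.0047 with the deposited values, 0.020 with normexp and 0.026 with slide as random block. Deviations of same-numbered replicates from their group means had correlations from -0.10 to 0.17, and those of differently numbered ones from -0.23 to 0.18. A pairing of the rats by number was thus not shown, and so few pairs cannot exclude it. With the replicate block 0 member probes were called for SM against control (Atad2 -2.63, adjusted p = 0.063) and for SM + MSTF against SM (2.27, adjusted p = 0.082), Cdc45 became -0.10 for SM against control and the second Rrm2 probe 0.0023 for SM + MSTF against SM.

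Leaving out 1 array turned the sign of the median of the members, which ran from -0.17 to 0.04 for SM against control, from -0.23 to 0.0034 for SM + MSTF against control and from -0.12 to 0.07 for SM + MSTF against SM. It also turned the sign of values that were not called. For SM against control the range was -0.12 to 0.18 for Cdc45, -0.40 to 0.091 for Ccne1 and -0.18 to 0.024 for the brightest Atad2 probe. For SM + MSTF against control it was -0.31 to 0.29 for Ccne1, -0.10 to 0.13 for the brightest and -0.68 to 0.16 for the dim Atad2 probe. For SM + MSTF against SM it was -0.18 to 0.48 for Ccne1, -0.21 to 0.082 for Tyms, -0.33 to 0.11 for Chaf1b and -0.28 to 0.29 for the second Rrm2 probe. Signal over background limited 7 members, which were too dim to test.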
